A study of Mus musculus with 11 samples.

Results

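Coding variants were described in 8 genes of growth factor, cytokine and mTOR signalling in mouse pancreatic ductal adenocarcinoma: Jak1, Pias3, Fas, Adam17, Notch2, Abl1, Pik3r6 and Nprl3. All records of the exome variant table with one of these gene symbols were taken, which gave 11 of 739 records and 8 of 558 listed genes. The genes were selected on having a record in this table, that is, on the authors' variant calls, so the presence of a variant in them is a description and not a finding. A record is a protein-altering variant listed for a tumour, with the reads that carry it.

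The tumours came from 11 mice, 4 KPT and 7 KT. KPT mice had Trp53fl/fl on top of the engineered alleles shared by all the mice, which include Rosa26LSL-tdTomato/LSL-tdTomato and Ptf1aCreER, while KT mice had the shared alleles alone. The tamoxifen-activated recombinase is driven by Ptf1a, so in adults the shared alleles, the tdTomato reporter among them, and, in KPT mice, the loss of p53 start in acinar cells. All mice, at an age of 8 to 10 weeks, received 5 mg tamoxifen by gavage daily for 3 days. Ethanol at 2% is also listed for all of them. The mice were kept until they fell ill. Each tumour is 1 library of genomic DNA from tumour tissue, and mice with floxed Cdkn2A-Arf were not analysed here.

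The genes act at different steps of several signalling pathways. Adam17, a membrane protease, releases ligands of the EGF receptor and the cytokine TNF, and cleaves receptors, Notch receptors among them in some settings. Fas is a death receptor, and Notch2 a receptor for ligands on neighbouring cells. Jak1 is the kinase bound to many cytokine and interferon receptors, Pias3 inhibits the STAT3 factor that such kinases activate, and Abl1 is a non-receptor tyrosine kinase. Pik3r6 is an adaptor subunit of the PI3K isoform that G protein-coupled receptors activate, and Nprl3 is a subunit of GATOR1, the complex that keeps mTORC1 off when amino acids are short. In the pancreas, JAK-STAT3, EGF receptor and Notch signals are known to accompany the change of acinar cells to duct-like cells that precedes acinar-derived tumours.

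Each of the 8 genes had records in 1 tumour only. Adam17, Fas, Jak1 and Pias3 were listed in KPT tumours, with 5 records in 3 of 4 tumours, of 188 KPT records in all (2.66%). Abl1, Nprl3, Notch2 and Pik3r6 were listed in KT tumours, with 6 records in 3 of 7 tumours, of 551 KT records in all (1.09%). The 4 genes in each genotype stand beside 173 genes listed in KPT and 391 in KT tumours. By tumour, KPT tumours 1 to 4 held 2, 0, 2 and 1 of these records, and KT tumours 1 to 7 held 4, 0, 0, 0, 1, 1 and 0. Being listed in 1 tumour was usual in this table, where only 14 of 558 genes had records in 2 or more tumours. Without KPT tumour 1 or without KPT tumour 3 the KPT count was 3 records, and without KT tumour 1 the KT count was 2.

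**Figure D1:**
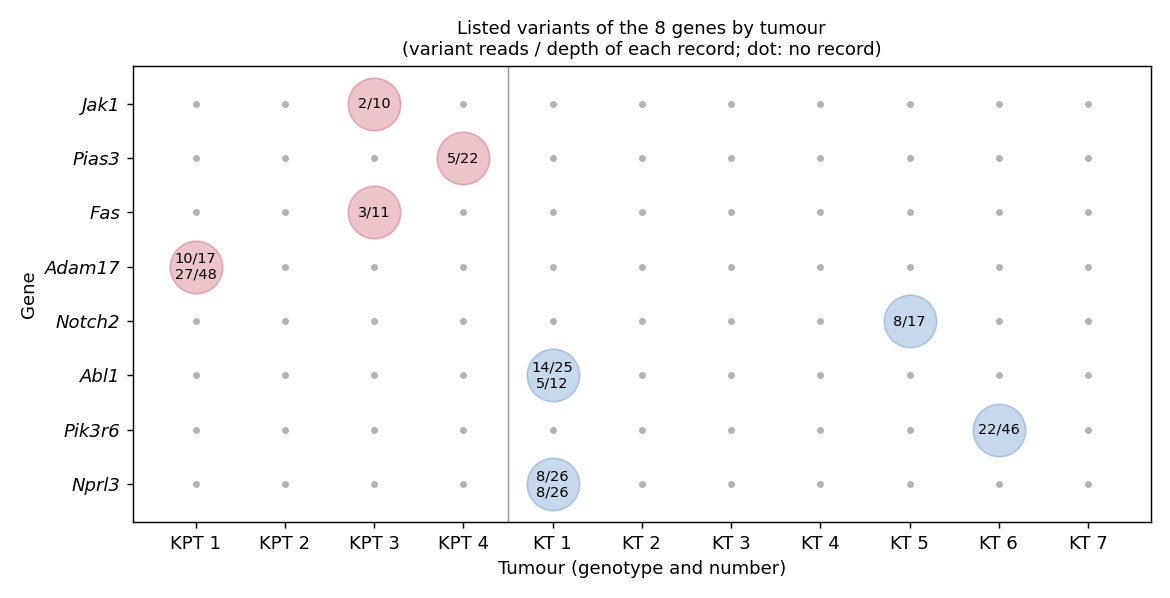
Records of the 8 genes (rows) in each tumour (columns, KPT left of KT). Each circle gives variant reads over depth for every record of that gene in that tumour, and small dots mark tumours with no record. The 8 genes each fill 1 column, and KT tumour 1 holds the 4 records of Abl1 and Nprl3.

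The number of tumours with a record was compared between KPT and KT for every gene of the table, and no gene passed the test. By two-sided Fisher's exact test with Benjamini-Hochberg adjustment, 0 of 558 genes passed an adjusted p of 0.05 (0%), and 0 had an unadjusted p below it. A gene in 1 KPT and 0 KT tumours, as Adam17, Fas, Jak1 and Pias3 were, had an exact p = 0.364, and a gene in 0 KPT and 1 KT tumours had an exact p = 1. The smallest exact p that 4 against 7 tumours allow is 0.0030. Genes seen in 1 tumour could not pass, and no difference between the genotypes was detectable for them. A gene in 0 KPT and 2 KT tumours had an exact p = 0.491. No gene of the table was listed in enough tumours to pass, so the count of 0 was fixed beforehand. That a tumour has no record says only that no variant was listed there, since the table starts at 10 reads and at an allele fraction of 25%, and gives no depth for unlisted sites.

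Of the 11 records, 8 were missense, 1 gained a stop codon and 2 were frameshifts, the last a pair in Nprl3. In the whole table, 8 of 739 records gained a stop codon and 18 of 739 were frameshifts, with 1 record counted in both. By base change, folded to the pyrimidine strand, 6 were C-to-T, 2 C-to-A and 1 T-to-C, beside 1 insertion and 1 deletion. Over the whole table C-to-T made up 254 of 739 records (34.4%) and C-to-A 158 of 739 (21.4%). The authors' mark for poor mappability was on 0 of the 11, against 52 of the 631 records that carry this annotation (8.24%). Depth was at least 20 reads in 6 of 11 records and in 445 of 739 overall (60.2%), and 9 of 11 records, against 584 of 739 (79.0%), had at least 5 variant reads.

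Read support differed among the 11 records. In KPT tumours depth at these sites ran from 10 to 48 reads (median 17) and variant reads from 2 to 27 (median 5), over 5 records. In KT tumours depth ran from 12 to 46 reads (median 25.5) and variant reads from 5 to 22 (median 8), over 6 records. Both ranges overlap almost wholly. The records behind these medians share tumours and genes, so they were not tested as replicates. Over all records the median was 4 variant reads in KPT tumours and 15 in KT tumours. By tumour it was 19, 11.5, 2 and 4 in KPT tumours 1 to 4, and from 4 to 19 in KT tumours. The pooled medians therefore do not hold for each tumour of a genotype.

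**Figure D2:**
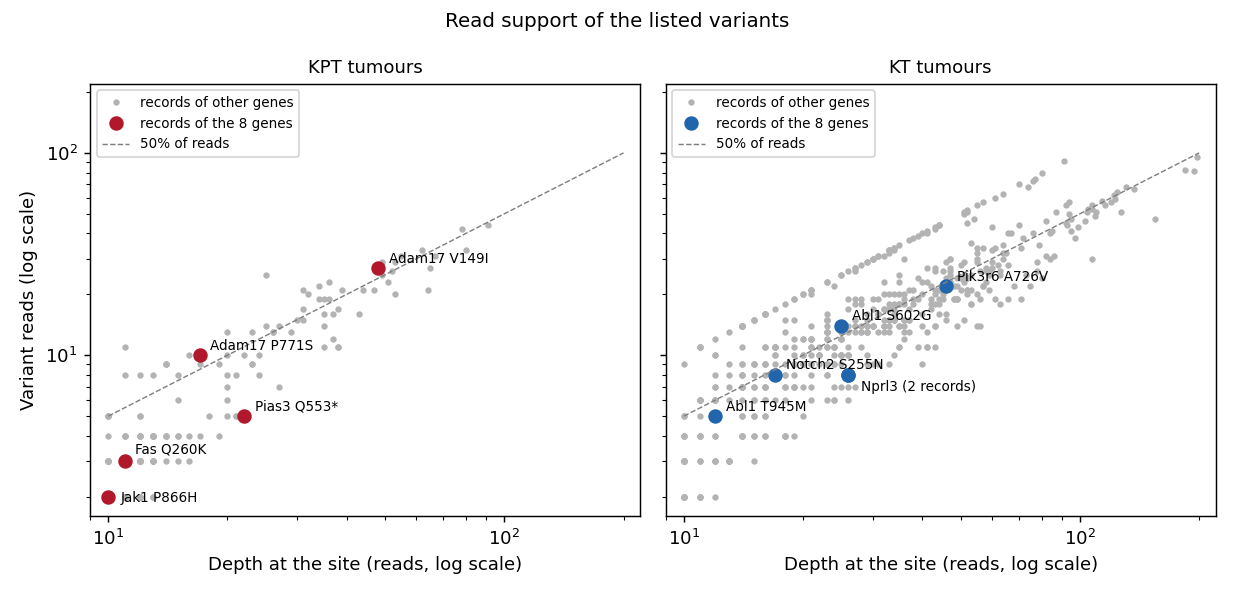
Variant reads against depth for every record, both on log scales, in KPT tumours (left) and KT tumours (right). Grey points are records of other genes, coloured points those of the 8 genes, and the dashed line marks a variant on 50% of reads. Jak1 and Fas lie at the low corner with 2 and 3 variant reads, while Adam17 V149I and Pik3r6 A726V lie near the line with 27 and 22.

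The codons changed are given here as the table lists them, in coding orientation and with the changed base in capitals, because they fix each amino acid exchange. Residues are counted from the first amino acid of the annotated protein. Positions are on build GRCm38. Domain names come from general knowledge of these proteins and were not computed.

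Adam17 carried 2 missense changes in KPT tumour 1. V149I (codon Gta to Ata) lies in exon 4 of 20 at position 21351548 of chromosome 12, in the prodomain that keeps the enzyme inactive until it is removed. Of 48 reads, 27 carried it, a share of 56.2% (95% Wilson interval 42.3% to 69.3%), and the listed allele fraction was 55.7%. P771S (Cct to Tct) lies in exon 20 of 20 at position 21325506, in the cytoplasmic tail. It was on 10 of 17 reads, a share of 58.8% (36.0% to 78.4%), with a listed fraction of 55.6%. The sites are 26042 bases apart on the genome, and their variant read shares did not differ beyond counting error (two-sided Fisher's exact p = 1). Intervals here and below cover counting error only, since reads are not independent molecules.

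No other gene of KPT tumour 1 had a record within 2 Mb of Adam17. Within 5 Mb there were 6 records in 6 genes, on both sides of it, with allele fractions from 34.4% to 53.7% and a median of 41.8%. All 6 were below the listed fractions of the Adam17 records. By reads, the highest of the 6, on 31 of 55 reads, was level with V149I, on 27 of 48. The nearest was Taf1b K178T, a change in a subunit of the RNA polymerase I machinery, 3.16 Mb from V149I and on 16 of 43 reads. Chromosome 12 held 10 of the 19 records of this tumour. Among those 19, only 1 had a higher allele fraction than V149I.

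Notch2 had S255N (codon aGc to aAc) in KT tumour 5. The site is position 98081929 of chromosome 3, in exon 5 of 34, and the residue lies among the EGF-like repeats of the extracellular part. The variant was on 8 of 17 reads, a share of 47.1% (26.2% to 69.0%), with a listed fraction of 44.3%. The authors marked Notch2 as a tumour suppressor gene. One other gene had a record within 2 Mb, Hjv, a co-receptor of iron regulation, with I379V at 1.55 Mb on 13 of 33 reads. Its listed fraction of 43.6% was close to that of Notch2. In this tumour 43 of 133 records had a lower fraction than Notch2 S255N and 89 a higher one.

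Fas had Q260K (Caa to Aaa) in KPT tumour 3. The site is position 34327118 of chromosome 19, in exon 9 of 9, which encodes the death domain through which the receptor binds its adaptor. The exchange puts a basic residue in place of a neutral one. The variant was on 3 of 11 reads, a share of 27.3% (9.75% to 56.6%), at a listed fraction of 25%, the lowest in the table. No record of the tumour had a lower fraction, and 45 of 63 had a higher one. No other gene had a record within 2 Mb.

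Jak1 had P866H (cCc to cAc) in the same tumour. The site is position 101158863 of chromosome 4, in exon 19 of 25, and the residue lies close to the junction of the pseudokinase domain and the catalytic kinase domain. It was on 2 of 10 reads, a share of 20% (5.67% to 51.0%), at a listed fraction of 30%. No record in the table has fewer variant reads, and the listed fraction was 10 percentage points above the read share. No other gene had a record within 2 Mb of it.

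The Fas and Jak1 changes are both C-to-A, the class of 51 of the 62 substitutions of KPT tumour 3 (82.3%). The share was 22.2%, 14.7% and 55.7% in KPT tumours 1, 2 and 4. In KT tumours it ran from 0% to 66.7%, the highest in KT tumour 7, which had 3 substitutions. In KPT tumour 3 the median depth at a listed site was 11 reads, 36 of 63 records rested on 2 variant reads and 52 on 3 or fewer. The part of depth in these calls was not tested. With a minimum of 5 variant reads, or of 20 reads of depth, neither Fas nor Jak1 is left in the table.

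Pias3 had the stop codon Q553* (Cag to Tag) in KPT tumour 4. The site is position 96704885 of chromosome 3, in exon 14 of 14, and lies beyond the SP-RING domain that gives the protein its SUMO ligase activity. The variant was on 5 of 22 reads, a share of 22.7% (10.1% to 43.4%), and was listed at 25%. The interval lies wholly below 50%, which was so for no other substitution among the 11 records. In this tumour 44 of 72 records had fewer variant reads, so Pias3 was supported better than most, while 62 of 72 had a higher allele fraction. The nearest other record on chromosome 3 was Pklr R385L, in a pyruvate kinase gene, 7.56 Mb away and on 3 of 10 reads.

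Abl1 had 2 missense changes in KT tumour 1, both in exon 11 of 11 on chromosome 2. That exon encodes the long C-terminal region behind the kinase domain. S602G (Agc to Ggc) at position 31800274 was on 14 of 25 reads, a share of 56% (37.1% to 73.3%), with a listed fraction of 53.9%. T945M (aCg to aTg) at position 31801304, 1030 bases away, was on 5 of 12 reads, a share of 41.7% (19.3% to 68.0%), with a listed fraction of 38.3%. The shares did not differ beyond counting error (two-sided Fisher's exact p = 0.495). The authors marked Abl1 as an oncogene.

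The Abl1 records lay in a dense group. Within 2 Mb of S602G the same tumour had 21 records in 9 other genes, at allele fractions from 26.2% to 57% with a median of 43.3%. Of these, 19 were below S602G and 2 above it. For T945M, 7 were below and 14 above, so the Abl1 records lay on both sides of that median. The nearest were Fibcd1 A40V at 38.5 kb, on 4 of 14 reads, and 4 records of the laminin gene Lamc3 from 87.2 kb on. The nuclear pore gene Nup214 had 3 records, the phosphatase-related gene Plpp7 had 1, and Hmcn2, a large matrix protein gene, had 8. Chromosome 2 held 54 of the 225 records of this tumour.

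Pik3r6 had A726V (gCg to gTg) in KT tumour 6, at position 68551950 of chromosome 11 in exon 20 of 20. It was on 22 of 46 reads, a share of 47.8% (34.1% to 61.9%), with a listed fraction of 46.5%. KT tumour 6 had only 6 records, and Pik3r6 had the most variant reads of them. The nearest other record was E133G of Hic1, a transcriptional repressor gene, 6.62 Mb away and on 3 of 10 reads.

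Nprl3 had 2 frameshift records in KT tumour 1, both in exon 7 of 13 on chromosome 11. The gene lies on the minus strand. A deletion of 1 base, listed at position 32241835, removed coding base 729, the last of codon 243 (atT). An insertion of 1 base, listed at position 32241832, added a G between coding bases 732 and 733. Each was on 8 of 26 reads, a share of 30.8% (16.5% to 49.99%), and the listed fractions were 37% and 34.5%. The authors marked Nprl3 as a tumour suppressor gene.

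The 2 changes were listed separately, each as a frameshift, but their lengths cancel. If they are read together, codon 243 turns from ATT into ATC, both of which encode isoleucine, codon 244 ends in the inserted G, and the frame is restored from codon 245. The table gives only the first base of codon 244, so its new amino acid was not derived. The deposited genotype call was 0|1 for both records, the notation of a phased call, in which the variant stands on the same side of the bar. The phase group behind the bar is not a column of the table, so that the changes share a molecule was not tested.

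Around Nprl3, 7 records in 3 other genes lay within 2 Mb, all at lower coordinates and within 49.99 kb. Mpg, a DNA glycosylase gene of base excision repair, had V47L on 7 of 16 reads and S86L on 5 of 16. Rhbdf1, whose product iRhom1 helps Adam17 to mature, had V674I on 15 of 23 reads and A358T on 20 of 32. Il9r, the receptor of the cytokine IL-9, which signals through Jak1, had L298V on 5 of 15 reads and S179N and S68L each on 6 of 11. The allele fractions ran from 32.2% to 63.7% with a median of 50%, and 6 of the 7 were above those of the Nprl3 records.

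**Figure D3:**
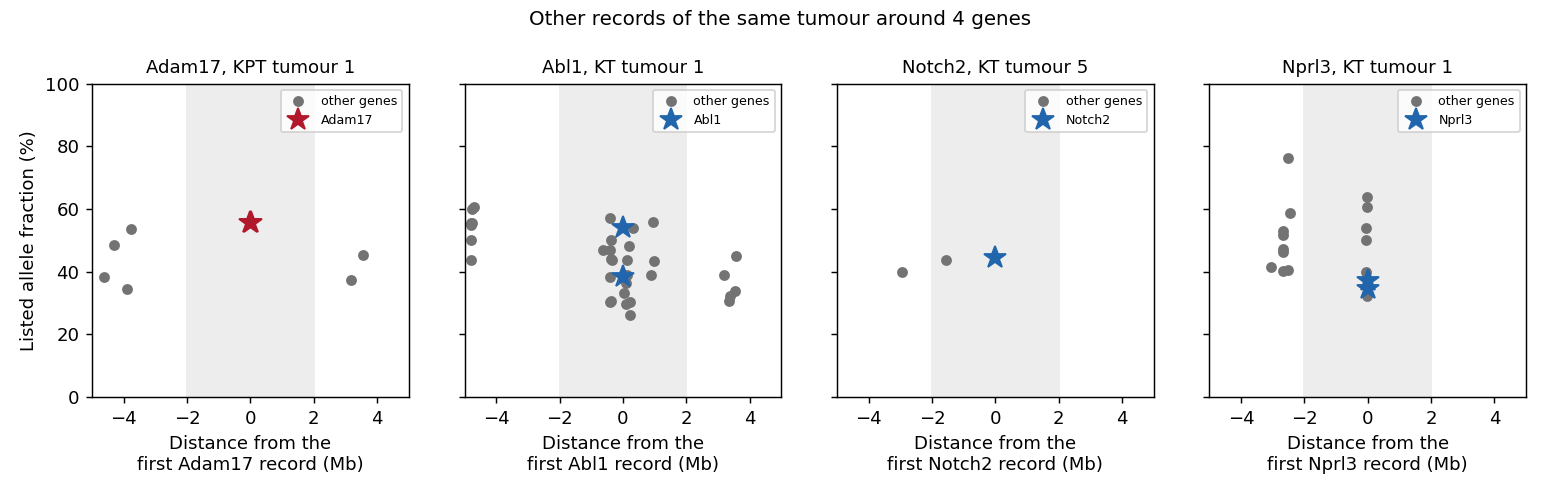
Listed allele fraction of the records of the same tumour within 5 Mb, against the distance from the gene's first record, for Adam17 in KPT tumour 1, Abl1 in KT tumour 1, Notch2 in KT tumour 5 and Nprl3 in KT tumour 1. Stars are the records of the named gene (the 2 of Adam17 overlap), grey points those of other genes, and the shaded band is 2 Mb to each side. Within the band Adam17 has no neighbour, Notch2 has 1, Nprl3 has 7 and Abl1 has 21.

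Across the 8 genes, 5 of 11 records had a record of another gene of the same tumour within 2 Mb, those of Abl1, Nprl3 and Notch2. Over the table this was so for 513 of 739 records (69.4%). The share depends on the tumour: it was 52.6% of records in KPT tumour 1, 22.2% in KPT tumour 3, 45.8% in KPT tumour 4, 84% in KT tumour 1, 71.4% in KT tumour 5 and 0% in KT tumour 6. With a window of 5 Mb it was 8 of the 11 records, with Adam17 and Fas added. The share over the table was not counted at 5 Mb, so the 69.4% is no counterpart to this count.

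The listed fraction lay inside the interval of the read share for all 11 records. The read shares of Adam17, Abl1, Notch2 and Pik3r6 ran from 41.7% to 58.8%, and those of Jak1, Pias3, Fas and Nprl3 from 20% to 30.8%. By listed fraction these ranges nearly met, at 38.3% for Abl1 T945M and 37% for the Nprl3 deletion. The intervals of records neighbouring in read share overlap, so neither their order nor a split into 2 groups is resolved at these depths.

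**Figure D4:**
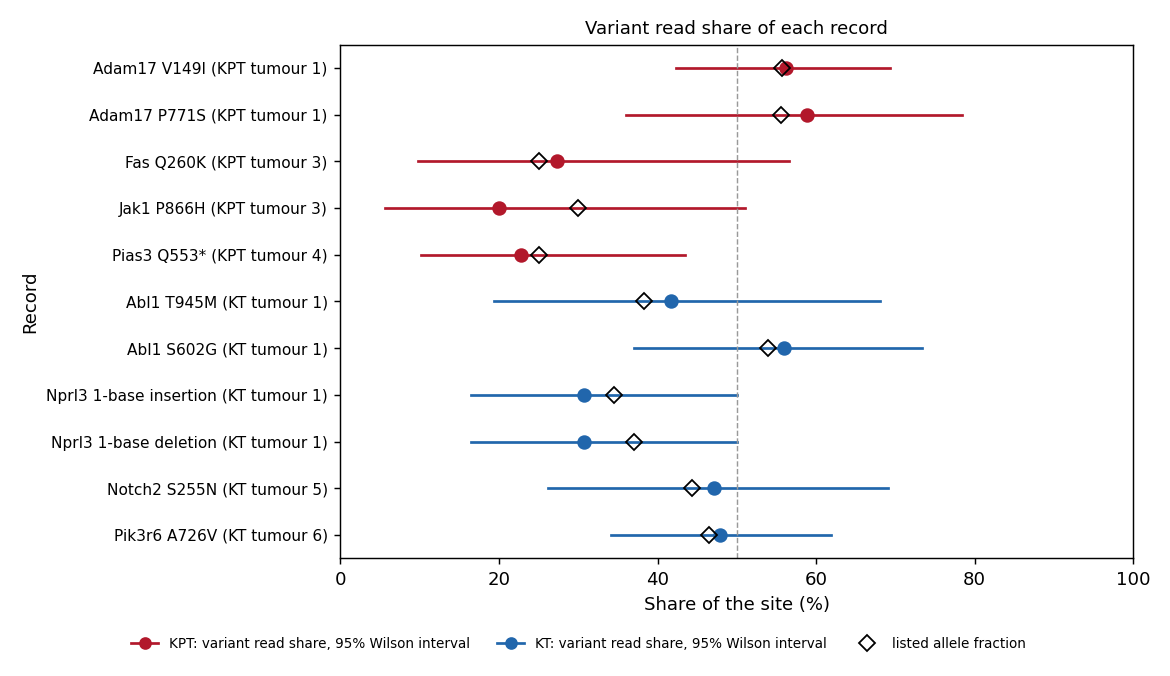
Share of reads with the variant (filled circles) with its 95% Wilson interval, and listed allele fraction (open diamonds), for the 5 KPT records above the 6 KT records. The read shares of Adam17, Abl1, Notch2 and Pik3r6 lie between 41.7% and 58.8%, and those of Jak1, Pias3, Fas and Nprl3 between 20% and 30.8%, with overlapping intervals. The interval of Pias3 ends at 43.4%, below the dashed line at 50%.

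Variant and reference reads were also compared by read-pair orientation, which the choice of genes did not use. The orientation counts fully matched the allele reads in 502 of 739 records (67.9%), and the test used the orientation counts alone. Over all 739 records, 1 had an adjusted p under 0.05 by two-sided Fisher's exact test (0.135%), and 20 had an unadjusted one. It was in none of the 8 genes. Among the 11 records the unadjusted exact p ran from 0.335, for Adam17 P771S with 6 and 4 variant reads against 2 and 5 reference reads, to 1. Jak1 had 1 variant read in each orientation and Fas had 1 and 2, so a bias could hardly be seen there. Most of the other records, Pias3, Notch2 and Abl1 T945M among them, also had too few reads. At their orientation counts, no split of the variant reads could pass the adjusted threshold. That none of the 8 genes passed was thus largely fixed beforehand and does not show an absence of bias.

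The C-to-T changes can be read for their next base where the codon holds it. Of 5 such records, Pik3r6 A726V and Abl1 T945M changed a C followed by a G, and Adam17 P771S, Pias3 Q553* and Notch2 S255N did not. Over the table it was 83 of 182 (45.6%).

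Other genes of the same pathways were counted from 7 lists. Of 226 listed genes, 13 had a record, 8 of them the genes above, so the lists say little without their other genes. Among the other 218 genes, 5 had a record (2.29%), and of 21900 RefSeq coding genes 2.48% did. No list was tested. For JAK-STAT signalling, 1 of 37 further genes had records, Il10ra, the IL-10 receptor chain that binds Jak1. It had G356E on 8 of 23 reads, G340S on 7 of 19 and H94R on 19 of 42, all in KT tumour 3.

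For death receptors, 1 of 22 further genes had a record: Ripk3, the kinase of necroptosis, had N136D in KPT tumour 2 on 8 of 20 reads. For Notch signalling it was 1 of 37: Rbpj, the DNA-binding partner of activated Notch, had R5M, also in a splice region, in KPT tumour 4 on 3 of 13 reads. For EGF receptor ligands and shedding, 2 of 31 further genes had records, Rhbdf1 in KT tumour 1 (above) and Nrg3, a ligand of ErbB4, with an in-frame insertion in KPT tumour 1 on 13 of 29 reads. That is the tumour with the Adam17 changes. The lists of ABL partners and of mTORC1 with its amino acid sensors had no record in their 23 and 44 further genes.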

How the data were processed

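Per the labels' protocols, tumour DNA went into a linked-read library kit and was captured on baits for all mouse exons. GATK, HISAT2 2.0.4, mm10 and GRCm38 are named in the submitters' processing notes, with no role. Caller, filters and any normal tissue are not given in the sources used here. Per the file headers, deposited depth is in counts of reads and the deposited allele fraction is a fraction estimated by the authors, printed in percent. The other deposited columns, per the file headers, hold allele reads (summing to the depth in all 739 records), reads by orientation, transcript positions and the authors' marks. Median depth per tumour ran from 11 to 38 reads in KPT and from 15 to 58 in KT tumours.

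Tumours were grouped by genotype. Some engineered alleles and listed genes are not reported here. Fisher's exact tests of gene frequency and of read orientation used the whole table, with Benjamini-Hochberg adjustment. Neighbours were counted within 2 Mb. The genes, lists and tests were chosen with earlier results of these data known. Named genes were the 8, at most 5 of the nearest neighbours each, and list genes with a record. Taf1b, Pklr and Hic1 (nearest records beyond 2 Mb) were added after their values were seen. All 8 symbols matched RefSeq (GRCm38.p6), and all 11 positions lay inside its gene spans. Alternatives covered minimum depth, minimum variant reads, mappability, windows, leaving out each tumour and a replicate block. Tests ran in SciPy 1.17.1 under Python 3.11.15, with pandas 2.3.3 for tables and Matplotlib 3.10.9 for figures.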

Additional observations from a re-analysis of the deposited data

Results flagged for a closer look

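KT tumour 1 was flagged for its number of records in the 8 genes, with 4, against 0 or 1 in each of the other 6 KT tumours. The gap to the next tumour was 0.75 of the group's range, past the limit of 0.568 used for flagging. That limit is made for continuous values. These are small counts, in genes chosen for having records, so no chance rate can be read from it. The 4 records are pairs in Abl1 and Nprl3. The tumour also had the most records in all, so the 4 were 1.78% of its 225 records, against 2 of 326 (0.613%) in the other KT tumours together. By genes it had 2 of the 8, which was not past that limit.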

How the results depend on the processing

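The count of genes that differed between KPT and KT tumours was 0 under each alternative run: depth of at least 20 reads, at least 5 variant reads, poorly mappable records left out, each tumour left out, KPT tumours 3 and 4 left out (chosen after seeing the data), adjustment over the 14 genes in at least 2 tumours, and a replicate block. The titles number the tumours of both genotypes but do not say that equal numbers pair animals. With the 4 shared numbers as a replicate block the count stayed at 0, and the smallest p such a design allows is 0.125. No gene was listed in enough tumours to pass in any of these runs, so the repeated 0 does not measure stability.

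The KPT records of the 8 genes numbered 5. They were 2 where depth reached 20 reads, 3 where variant reads numbered 5 or more, and 2 without KPT tumours 3 and 4, where 1 tumour held them. Leaving out 1 tumour gave 3 to 5 KPT records in 2 to 3 tumours and 2 to 6 KT records in 2 to 3 tumours. It also gave an orientation count of 0 to 1, with 0 without KPT tumour 4, and 10 to 13 list genes with a record. Records with a neighbour rose to 8 at 5 Mb. List genes numbered 9 where depth reached 20 reads and 9 without KPT tumours 3 and 4. KT records fell to 4 where depth reached 20 reads, in 2 tumours, and KPT tumours with a record to 2. The other values moved by at most 1.5 times, a ratio that the listed fraction of Jak1 had to its read share. Depth limits the shares: with 10 to 48 reads at a site, the intervals of 8 of the 11 records included 50%.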

Other observations

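Phased genotype calls were given for 4 of 11 records of the 8 genes, against 41 of 739 in the whole table (5.55%), a difference that was not tested. Besides the Nprl3 pair they were Adam17 P771S and Abl1 S602G. The nearest other phased record of the same tumour and chromosome was 112 kb from S602G, in Lamc3, and 43147459 bases from P771S, in Fscb.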
